A study of Sus scrofa with 8 samples.

Results

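The transcripts described are those of 10 genes that move cholesterol out of hepatic cells, esterify it and remodel the high-density lipoprotein (HDL) that carries it: ABCA1, ABCG1, ABCG5, ABCG8, SCARB1, SOAT1, SOAT2, LCAT, PLTP and LPCAT3. They were chosen by symbol from a hepatic RNAseq table of 18103 rows, of which 17778 are genes with a symbol and 325 are new transcripts, and each of the 10 symbols had its row. The samples were livers of male Landrace x Large White pigs, a commercial cross. A first group of 4 pools came from the initial state, healthy pigs of 4 months before the dietary intervention, and a second group of 4 pools from the same animals in steatosis, at 6 months of age and after 2 months on a steatotic diet rich in cholesterol, cholate, fructose and saturated fat and poor in methionine and choline. Each pool joined the RNA of 2 pigs, and whether pools of the same number held the same pigs in both groups is not stated. The initial livers were sampled by biopsy at laparotomy and the steatotic ones after euthanasia, so that diet, age and way of sampling cannot be told apart. There was no group of 6 months without the diet.

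Excess cholesterol leaves a cell through ATP-binding cassette (ABC) transporters. ABCA1 loads cholesterol and phospholipid onto lipid-poor apolipoprotein A-I, the first step in making HDL, ABCG1 passes cholesterol to HDL already formed, and ABCG5 with ABCG8 form the heterodimer that secretes sterols from hepatocytes into bile. Inside the cell, the acyltransferases SOAT1 and SOAT2 store cholesterol as esters. In plasma, LCAT esterifies the cholesterol of HDL and PLTP transfers phospholipids between lipoproteins, while SCARB1 at the hepatocyte surface takes up cholesteryl esters from HDL. LPCAT3, an acyltransferase of phospholipids, sets how many polyunsaturated chains membranes and lipoproteins carry. Several of these genes are known targets of the liver X receptors (LXR), nuclear receptors that bind oxysterols.

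Expression was taken as FPKM, the fragments mapped to a transcript relative to its length and to the fragments mapped in the library, so that levels are per transcript length. Only genes that reached 0.3 FPKM in 4 or more libraries were kept (13175, among them the 10 genes, whose lowest value in any library was 0.46 FPKM), and limma tested log2(FPKM + 0.1) between the groups. A transcript was called changed when its Benjamini-Hochberg adjusted p lay under 0.01 and its log2 fold change exceeded 1 in either direction. By this rule 5 of the 10 transcripts (ABCG1, PLTP, ABCA1, SOAT2 and ABCG5) were higher in steatosis, against 6.01% of all genes tested, and 0 were lower, against 0.334%. At an adjusted p under 0.05 and any fold change, 6 were higher and 1 was lower, against 26.7% and 2.28% of all genes tested. In 6 transcripts every steatosis pool lay above every initial pool, and in 1, LCAT, below, against 29.6% and 2.53% of all genes. The median log2 fold change of the 10 was 1.05, while that of all genes tested was 0.25. This general shift upwards depends on the scaling between libraries, since it was 0.04 after scaling to the upper quartile and -0.01 after scaling by the median ratio to the mean library. In these bulk samples a change in the number of cells of a type and a change in RNA per cell cannot be told apart.

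**Figure D1:**
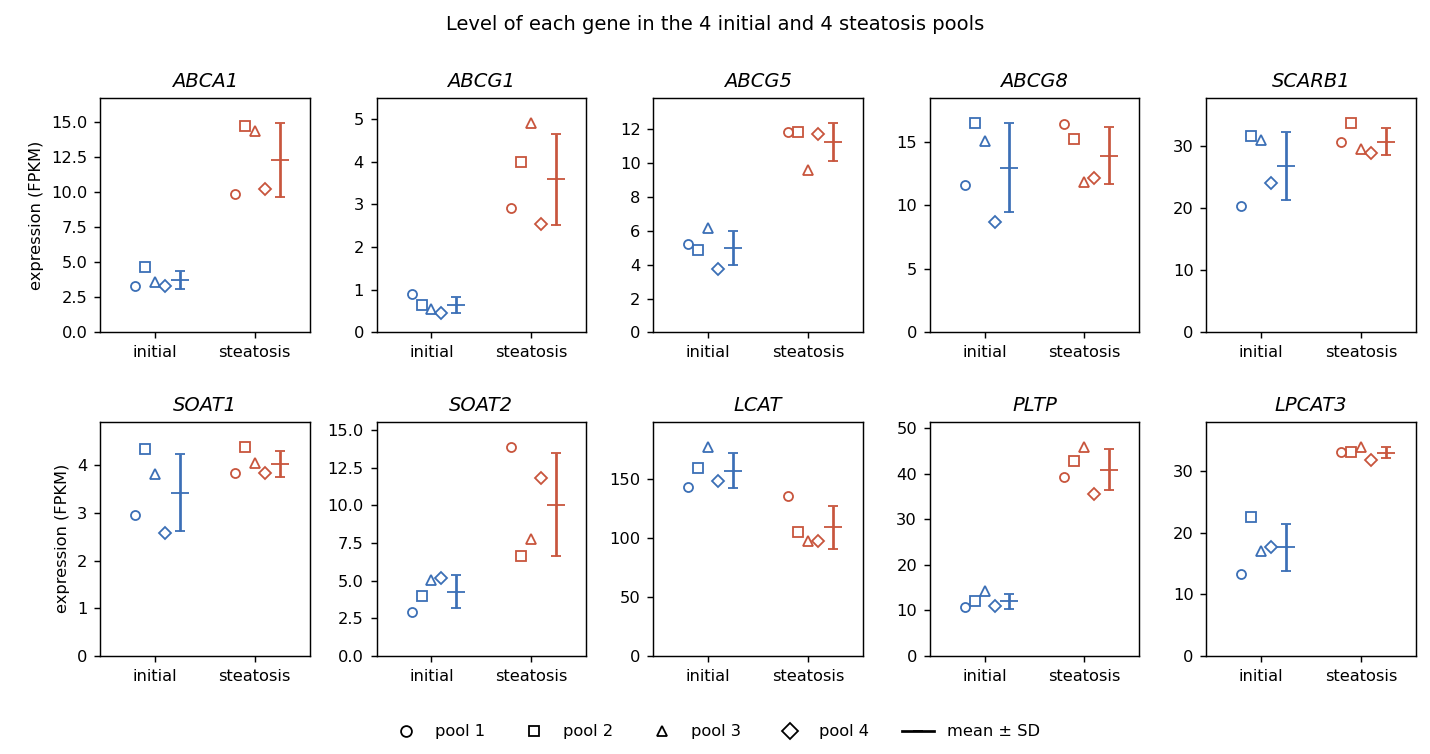
FPKM (vertical axes, from 0) of each of the 10 genes in the 4 initial and the 4 steatosis pools, each point being a pool of 2 pigs and the bars the mean ± SD. PLTP, ABCA1, ABCG1, ABCG5, SOAT2 and LPCAT3 have every steatosis pool above every initial pool, LCAT has every steatosis pool below, and in ABCG8, SOAT1 and SCARB1 the groups overlap.

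Pool 1 of the initial state stood apart, since its summed FPKM was 2554 for 6 skeletal muscle genes and 1471 for 5 genes of stomach mucosa, when the other 7 libraries reached at most 18.8 and 23.7. Without it, 4 of the 10 transcripts were called higher, as SOAT2 no longer passed, and the other 4 calls held. As to the cells of the liver, hepatocyte markers (10 genes, albumin among them) summed to 61892-92673 FPKM in the initial state and to 55410-66019 in steatosis, with 0 of 10 called. Of these 10, 1 was higher and 1 lower at an adjusted p under 0.05, against 26.7% and 2.28% of all genes. Under the upper quartile and median ratio scalings 0 were higher, and 2 and 3 were lower. Of all genes, 961 of 13124 and 1290 of 13101 were lower under these scalings. Of 16 macrophage markers, 7 were called higher and 0 lower, and their sum went from a range of 980-1248 to one of 2269-3003 FPKM. The largest increases in mean FPKM among the 16 were those of GPNMB (24.1 to 776) and LGALS3 (4.33 to 275). At an adjusted p under 0.05 and any fold change, 13 of the 16 were higher, against 26.7% of all genes tested. Among them were CD68 (log2 fold change 2.01), VSIG4 (0.94), ADGRE1 (0.83), C1QB (0.64), CSF1R (0.62) and C1QC (0.44). The 3 others were CD163 (0.32, adjusted p = 0.0889), C1QA (0.07, adjusted p = 0.73) and CD14 (-0.19, adjusted p = 0.186). Under the upper quartile and median ratio scalings 12 and 10 were higher and 1 lower in each. Of all genes, 1715 of 13124 and 1521 of 13101 were higher there. The CD68 row is the one with that symbol, while the CD68 among the authors' selected transcripts is another gene entry with a larger fold change. ABCA1, ABCG1 and PLTP are also expressed by macrophages, and the part of macrophages in the values below was not tested. Among markers of the intestine, which also expresses ABCG5, ABCG8 and SOAT2, VIL1 was higher in steatosis (1.15 to 8.39 FPKM). FABP2, SI, CDX2 and CDH17 did not pass the filter.

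Both exporters to HDL were higher in steatosis. The transcript of ABCA1 (gene 100152112, chromosome 1, 246144277 to 246278492 of assembly Sscrofa11.1) had 3.31, 4.69, 3.58 and 3.31 FPKM in initial pools 1 to 4, and 9.85, 14.75, 14.37 and 10.2 FPKM in steatosis pools 1 to 4. Thus the lowest steatosis pool was above the highest initial pool, and within steatosis pools 2 and 3 were above pools 1 and 4. The mean rose from 3.72 ± 0.657 to 12.3 ± 2.63 FPKM (SD over 4 pools), with a log2 fold change of 1.69 (SE 0.17, 95% interval 1.30 to 2.07, limma adjusted p = 0.000181). ABCG1 (gene 100620416, chromosome 13, 205561897 to 205628428) had the lowest mean of the 10 in both groups, with 0.9, 0.64, 0.56 and 0.46 FPKM initially and 2.91, 3.98, 4.9 and 2.55 FPKM in steatosis. It had the highest fold change of the 10, from 0.64 ± 0.188 to 3.585 ± 1.07 FPKM (log2 fold change 2.30, SE 0.24, 95% interval 1.76 to 2.85, adjusted p = 0.000207). As in ABCA1, steatosis pools 2 and 3 held the higher values, an order that 19.5% of all genes tested had. The macrophage marker sums in steatosis were also higher in pools 2 and 3 (3003 and 2782 FPKM) than in pools 1 and 4 (2475 and 2269 FPKM). In the initial state they were 980, 1140, 1092 and 1248 FPKM in pools 1 to 4, which is not the order of either gene, since ABCG1 was highest in pool 1 and lowest in pool 4 and ABCA1 was lowest in pools 1 and 4.

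The difference in change between ABCG1 and ABCA1 was not shown beyond the spread between pools. The ratio of ABCG1 to ABCA1 was 0.272, 0.136, 0.156 and 0.139 in the initial pools and 0.295, 0.27, 0.341 and 0.25 in steatosis, where pool 1 of the initial state lay within the steatosis range. The log2 ratio changed by 0.62 (two-sided exact permutation test without pairing, p = 0.0857, also 0.0857 when adjusted over 5 pairs of genes), and by 0.04, 0.83, 0.95 and 0.65 between pools 1 to 4 of the same number. Without initial pool 1 the change was 0.82 (exact permutation p = 0.0286), and with a pseudocount of 1 in place of 0.1 it turned to -0.02 (exact permutation p = 0.943), as the levels of ABCG1 in the initial state are below 1 FPKM.

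The subunits of the biliary transporter behaved differently. ABCG5 (gene 102164809, chromosome 3, 96616304 to 96656893) and ABCG8 (gene 100048963, chromosome 3, 96596975 to 96616224) lie side by side with 79 bases between them. ABCG5 had 5.24, 4.9, 6.15 and 3.73 FPKM initially and 11.85, 11.86, 9.59 and 11.74 FPKM in steatosis, without overlap, and its 3 highest steatosis pools were nearly equal while pool 3 was lower. The mean increased from 5.005 ± 1.0 to 11.26 ± 1.11 FPKM (log2 fold change 1.17, SE 0.15, 95% interval 0.83 to 1.51, adjusted p = 0.000662). ABCG5 fell short of the fold limit under scaling to the upper quartile (0.95, adjusted p = 0.00157) and by the median ratio (0.90, adjusted p = 0.00158). ABCG8, in turn, had 11.62, 16.46, 15.09 and 8.71 FPKM initially and 16.36, 15.25, 11.83 and 12.18 FPKM in steatosis, with the highest and the lowest of the 8 values both in the initial state. Its means were 12.97 ± 3.49 and 13.9 ± 2.24 FPKM (log2 fold change 0.13, SE 0.20, 95% interval -0.32 to 0.57, adjusted p = 0.658), and the sign turned to -0.09 and -0.14 under those scalings.

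Within a pool the ratio of both subunits does not depend on the scaling. ABCG5 over ABCG8 was 0.451, 0.298, 0.408 and 0.428 in the initial pools and 0.724, 0.778, 0.811 and 0.964 in steatosis, with no overlap. The mean ratio went from 0.396 ± 0.068 to 0.819 ± 0.103 (SD, n = 4), a change of 1.04 in the log2 ratio (exact permutation p = 0.0286, the smallest that 4 pools against 4 can give, and 0.0476 adjusted over the 5 pairs). Leaving out each library in turn, the change lay between 0.91 and 1.11. In the RefSeq annotation the end of ABCG5 shares 795 bases with DYNC2LI1, a dynein subunit, which went from 4.40 to 7.35 FPKM (log2 fold change 0.75, adjusted p = 0.0159). Reads from the shared stretch may be credited to either gene, and their number was not analysed. The neighbour of ABCG8 on the other side, LRPPRC, a regulator of mitochondrial mRNA, went from 13.96 to 18.1 FPKM (0.37, adjusted p = 0.032).

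**Figure D2:**
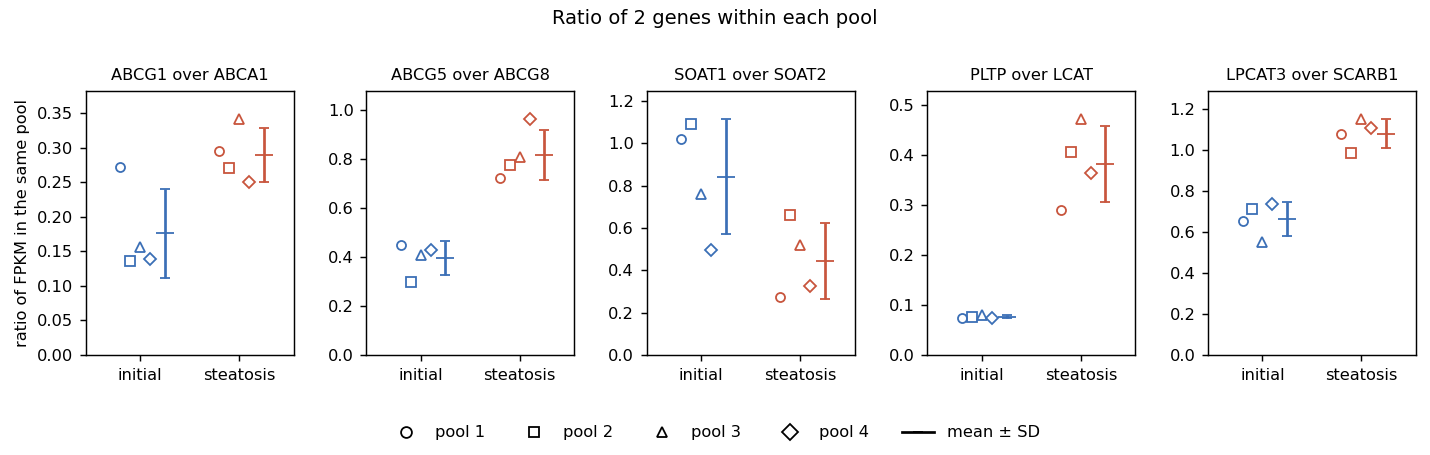
Ratio of the FPKM of 2 genes in the same pool (vertical axes, from 0) in the 4 initial and the 4 steatosis pools, with the mean ± SD. The ratios ABCG5 over ABCG8, PLTP over LCAT and LPCAT3 over SCARB1 are higher in every steatosis pool than in any initial pool, while those of ABCG1 over ABCA1 and SOAT1 over SOAT2 overlap.

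The HDL receptor gene SCARB1 (gene 397018, chromosome 14, 28301421 to 28393568) was the second most abundant of the 10 in the initial state. It had 20.28, 31.56, 30.94 and 24.01 FPKM there and 30.66, 33.63, 29.55 and 28.78 FPKM in steatosis. Initial pools 2 and 3 were within the range of steatosis, and pools 1 and 4 were below it. Means of 26.7 ± 5.48 and 30.7 ± 2.13 FPKM gave a log2 fold change of 0.22 (SE 0.14, 95% interval -0.10 to 0.54, adjusted p = 0.275), which became -0.0003 under the upper quartile scaling and -0.05 under the median ratio scaling.

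Of both cholesterol acyltransferases, SOAT2, the form of hepatocytes and enterocytes, had the higher levels in steatosis. SOAT2 (gene 100515544, chromosome 5, 18358941 to 18371262) had 2.9, 3.99, 5.02 and 5.21 FPKM initially and 13.9, 6.62, 7.79 and 11.85 FPKM in steatosis. The groups did not overlap, and in steatosis pools 1 and 4 were above pools 2 and 3, the reverse of the order seen in ABCA1 and ABCG1. The mean went from 4.28 ± 1.06 to 10.04 ± 3.41 FPKM (log2 fold change 1.18, SE 0.26, 95% interval 0.60 to 1.76, adjusted p = 0.00855). This call was close to the limit, since adjusted p reached 0.0138 when the pool was a block, 0.0156 without a filter on low values and between 0.00726 and 0.0287 when a library was left out, with the call kept only without steatosis pool 2. SOAT2 passed neither limit under the upper quartile scaling (log2 fold change 0.97, adjusted p = 0.0296) or the median ratio scaling (0.91, adjusted p = 0.0415). Marker sums of bile ducts and of stellate cells in steatosis were also higher in pools 1 and 4 (18.6 and 18.5 FPKM for ducts, 202 and 277 for stellate cells) than in pools 2 and 3 (7.57 and 7.89, and 108 and 116). In the initial state their order was the reverse of that of SOAT2, with 19.9, 7.33, 6.71 and 4.06 FPKM for ducts and 180, 138, 101 and 57.9 FPKM for stellate cells in pools 1 to 4. The steatosis sums of enterocyte markers (9.28, 6.8, 7.82 and 11.06 FPKM in pools 1 to 4) and T cell markers (27.1, 22.9, 21.3 and 27.1 FPKM) were also higher in pools 1 and 4. The enterocyte sums were nearly all VIL1, with a mean of 8.39 FPKM in steatosis. FABP2, CDX2, SI and CDH17 had means of 0.098, 0.22, 0 and 0.03 FPKM there. The steatosis sums of hepatocyte markers were lower in pools 1 and 4 (55947 and 55410 FPKM) than in pools 2 and 3 (59639 and 66019 FPKM). Of all genes tested, 23.5% had steatosis pools 1 and 4 above pools 2 and 3. The part of these cells in the values of SOAT2 was not tested.

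SOAT1 (gene 100628166, chromosome 9, 121045211 to 121112393), the form most tissues and macrophages use, had 2.96, 4.35, 3.82 and 2.57 FPKM initially and 3.83, 4.39, 4.05 and 3.83 FPKM in steatosis. The steatosis values lay close together, and 3 of the initial pools were below them, pool 3 only just. With means of 3.425 ± 0.808 and 4.025 ± 0.265 FPKM, the log2 fold change was 0.25 (SE 0.17, 95% interval -0.12 to 0.62, adjusted p = 0.273), close to the median of all genes and -0.01 under the median ratio scaling. The ratio of SOAT1 to SOAT2 was 1.02, 1.09, 0.761 and 0.493 in the initial pools and 0.276, 0.663, 0.52 and 0.323 in steatosis. The log2 ratio changed by -0.93, and the groups overlapped (unpaired exact permutation p = 0.0857, and 0.0857 over the 5 pairs). Between pools of the same number it changed by -1.86, -0.70, -0.54 and -0.61, lower in 4 of 4, and 4 pairs cannot give an exact sign-flip p below 0.125.

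Of the transcripts of the plasma proteins that remodel HDL, PLTP was called higher and, with FPKM as deposited, LCAT was lower at the looser limit alone. LCAT (gene 100303723, chromosome 6, 28550356 to 28553561) was the most abundant of the 10 in both groups, with 143.36, 159.56, 177.4 and 148.27 FPKM initially and 135.65, 105.36, 97.41 and 97.32 FPKM in steatosis. No value of steatosis reached the initial range, although pool 1 came near it. The mean went from 157 ± 15.1 to 109 ± 18.2 FPKM, a decrease by 0.54 on the log2 scale (log2 fold change -0.54, SE 0.12, 95% interval -0.82 to -0.26, adjusted p = 0.011), which passed the looser limit and neither of the stricter ones. Under the upper quartile and median ratio scalings the log2 fold change was -0.76 (adjusted p = 0.00241) and -0.81 (adjusted p = 0.00267). Both passed the adjusted p limit of 0.01 and not the fold limit. PLTP (gene 397527, chromosome 17, 48089789 to 48101604) had 10.66, 12.07, 14.3 and 11.03 FPKM initially and 39.25, 42.72, 45.94 and 35.45 FPKM in steatosis. The gap between the groups was wider than the range within either. Its mean increased from 12.015 ± 1.64 to 40.8 ± 4.51 FPKM (log2 fold change 1.76, SE 0.12, 95% interval 1.49 to 2.03, adjusted p = 2.13e-05), and it was the only one of the 10 called under each of the 18 alternative settings tried. PLTP shares 183 bases with CTSA, the lysosomal protective protein, in the RefSeq annotation, and CTSA went from 43.0 to 86.2 FPKM (log2 fold change 1.01, adjusted p = 0.000871).

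PLTP over LCAT was the ratio with the largest change of the 5 pairs, and the initial pools were close to each other. It was 0.0744, 0.0756, 0.0806 and 0.0744 in the initial pools and 0.289, 0.405, 0.472 and 0.364 in steatosis. The mean ratio went from 0.0763 ± 0.00297 to 0.383 ± 0.0763, a change of 2.30 in the log2 ratio (exact permutation p = 0.0286, and 0.0476 over the 5 pairs).

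LPCAT3 (gene 100627653, chromosome 5, 63707674 to 63746369) had 13.25, 22.52, 17.03 and 17.74 FPKM initially and 33.04, 33.14, 33.98 and 31.82 FPKM in steatosis. The steatosis pools were nearly equal and above all initial ones. From 17.6 ± 3.81 to 33.0 ± 0.89 FPKM, the log2 fold change was 0.92 (SE 0.14, 95% interval 0.61 to 1.24, adjusted p = 0.00154), under the fold limit. It was 1.05 without initial pool 2, which had the highest initial value, and LPCAT3 passed both limits there (adjusted p = 0.000801). Without initial pool 1 the log2 fold change was 0.80. Under the upper quartile and median ratio scalings it was 0.70 (adjusted p = 0.00593) and 0.65 (adjusted p = 0.0104). LPCAT3 over SCARB1, a pair of genes that were similar in level, was 0.653, 0.714, 0.55 and 0.739 in the initial pools and 1.08, 0.985, 1.15 and 1.11 in steatosis, without overlap. The mean ratio went from 0.664 ± 0.0838 to 1.08 ± 0.0695 (change in the log2 ratio 0.70, exact permutation p = 0.0286, and 0.0476 over the 5 pairs). A stretch of 44 bases is shared with EMG1, which went from 25.8 to 21.2 FPKM (adjusted p = 0.114).

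**Figure D3:**
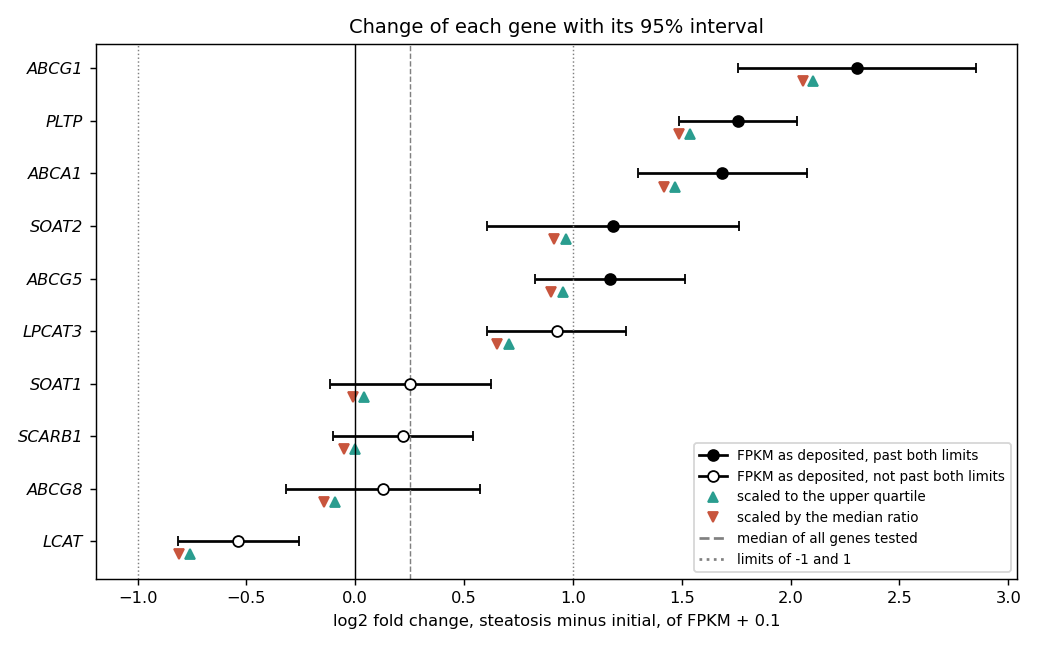
Log2 fold change of FPKM + 0.1, steatosis minus initial (horizontal axis), with its 95% interval, filled where adjusted p is under 0.01 and the change is beyond 1, and the same estimate after 2 other scalings (triangles). ABCG1, PLTP and ABCA1 stay above 1 under the 3 scalings drawn, SOAT2 and ABCG5 fall just under 1, and ABCG8, SOAT1 and SCARB1 lie around 0 after scaling by the median ratio.

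The order of levels changed most for PLTP, as FPKM are per length and can be set side by side. In the initial state the order was LCAT, SCARB1, LPCAT3, ABCG8, PLTP, ABCG5, SOAT2, ABCA1, SOAT1 and ABCG1. LCAT was separate from SCARB1, PLTP from ABCG5 and SOAT1 from ABCG1, whereas the ranges of the other neighbours overlapped. In steatosis the order was LCAT, PLTP, LPCAT3, SCARB1, ABCG8, ABCA1, ABCG5, SOAT2, SOAT1 and ABCG1. Here LCAT, PLTP and LPCAT3 were separate from each other, as were SCARB1 from ABCG8 and SOAT2 from SOAT1, and the ranges of LPCAT3 with SCARB1, of ABCG8, ABCA1, ABCG5 and SOAT2 in turn, and of SOAT1 with ABCG1 overlapped. PLTP thus went from rank 5, at 12.015 FPKM, to rank 2, at 40.8 FPKM.

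The rest of the pathway was read from gene lists, each given by its counts beside the 6.01% of all genes called higher and the 0.334% called lower. Of the LXR axis, 14 of 15 genes passed the filter, 4 were called higher and 0 lower, with a median log2 fold change of 0.60. At an adjusted p under 0.05, 9 were higher, against 26.7% of all genes tested. Under the upper quartile and median ratio scalings 7 and 6 were higher, against 1715 of 13124 and 1521 of 13101 of all genes. The 4 were SCD, the stearoyl-CoA desaturase (7.72 ± 3.91 to 95.1 ± 39.6 FPKM, log2 fold change 3.67), SMPDL3A, a phosphodiesterase (3.65 ± 0.817 to 40.4 ± 10.8 FPKM, 3.42), SREBF1, the regulator of fatty acid synthesis (7.80 ± 3.19 to 25.2 ± 9.31 FPKM, 1.70), and MERTK, a receptor of phagocytes (2.01 ± 0.111 to 5.06 ± 0.577 FPKM, 1.29). SREBF1 lost its call without initial pool 1 (adjusted p = 0.0108) and under the upper quartile (0.0109) and median ratio (0.0112) scalings. Of the receptors themselves, NR1H3 (LXR alpha) went from 65.9 ± 7.31 to 95.5 ± 2.21 FPKM (0.54, adjusted p = 0.00294), under the fold limit, and NR1H2 (LXR beta) from 29.4 ± 4.12 to 30.7 ± 2.31 FPKM (0.07, adjusted p = 0.675). FASN, another gene that LXR and SREBF1 are known to act on, had 9.51 ± 6.90 and 8.42 ± 1.92 FPKM (0.03, adjusted p = 0.953).

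Cholesteryl ester hydrolysis, the reverse of the SOAT reaction, had 5 of 6 genes tested, 2 called higher and 0 lower, with a median of 0.79. NCEH1, a neutral hydrolase of macrophages, went from 1.56 ± 0.383 to 4.86 ± 0.781 FPKM (log2 fold change 1.60) and CES3, a hepatic carboxylesterase, from 72.7 ± 14.5 to 145 ± 17.2 FPKM (1.01), although CES3 was under the fold limit after the upper quartile (0.79) and median ratio (0.73) scalings. LIPA, the lysosomal acid lipase, had 114 ± 21.6 and 197 ± 37.2 FPKM (0.79, adjusted p = 0.00983), under the fold limit. Intracellular sterol transport had 16 of 16 genes tested, with 2 called higher, 0 lower and a median of 0.24. GRAMD1B, which carries plasma membrane cholesterol to the endoplasmic reticulum, went from 0.345 ± 0.122 to 1.14 ± 0.206 FPKM (1.51), and NPC2, which binds cholesterol in lysosomes, from 32.6 ± 1.61 to 73.1 ± 5.57 FPKM (1.16, and 0.94 and 0.89 under the other scalings). At an adjusted p under 0.05, 7 of the 16 were higher and 2, STARD4 (-0.46) and TMEM97 (-0.49), were lower, against 26.7% and 2.28% of all genes tested.

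HDL apolipoproteins and remodelling enzymes had 15 of 17 genes tested, 0 called higher and 1 lower, with a median of 0.05. The call was APOA4, an apolipoprotein of HDL and chylomicrons, which went from 2028 ± 482 to 614 ± 298 FPKM, a decrease by 1.82 on the log2 scale (adjusted p = 0.00291). APOA1, the protein that accepts cholesterol from ABCA1, had 3947 ± 718 and 4036 ± 209 FPKM (log2 fold change 0.05, SE 0.14, adjusted p = 0.816), and APOE 4761 ± 624 and 5464 ± 359 FPKM (0.21, adjusted p = 0.24). LIPC, the hepatic lipase, had 123 ± 16.4 and 174 ± 7.53 FPKM (0.51, adjusted p = 0.00617), under the fold limit. Of the 15 genes of this list, 2 were higher and 2 lower at an adjusted p under 0.05, against 26.7% and 2.28% of all genes. Under the upper quartile and median ratio scalings 1 was higher and 5 lower in each, with list medians of -0.17 and -0.22. Of all genes, 961 of 13124 and 1290 of 13101 were lower under these scalings. Relatives of the 10 genes were read as well. Of 13 other ABCA and ABCG transporters 7 were tested and 0 called in either direction, with a median of 0.53. At an adjusted p under 0.05, which 26.7% of all genes passed upwards, 5 of the 7 were higher. Under the upper quartile and median ratio scalings 2 were higher in each, against 1715 of 13124 and 1521 of 13101 of all genes. Without initial pool 1, 2 were higher, against 3099 of 13066 of all genes. Of 10 acyltransferases related to LPCAT3, 0 were called (1 without initial pool 1), with a median of 0.45. At the looser limit 5 of them were higher, and 2 under either of those scalings.

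**Figure D4:**
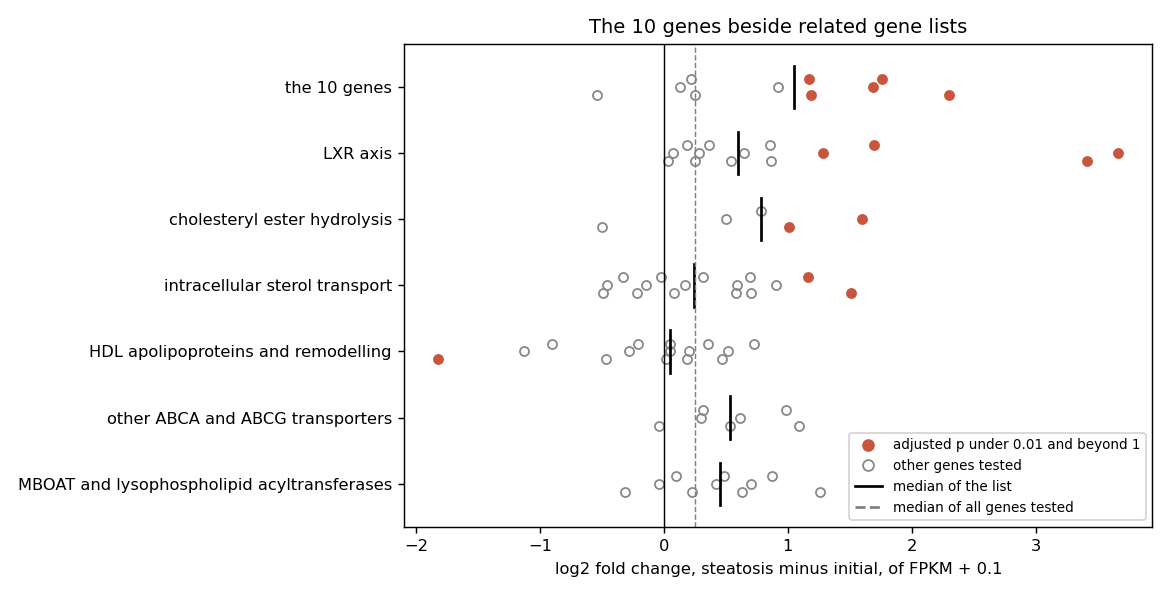
Log2 fold change of FPKM + 0.1, steatosis minus initial (horizontal axis), of each gene tested in the 10-gene set and in 6 related lists (rows), filled where adjusted p is under 0.01 and the change is beyond 1, with the median of each list and that of all genes (0.25). The 10 genes have a median of 1.05, the LXR axis 0.60 and HDL apolipoproteins and remodelling 0.05, where APOA4 is the filled point on the left.

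For the 3 transcripts with the largest fold changes, the most similar genes over the 8 libraries were looked for among 12116 candidates, as a description, since any gene that differs between the groups resembles them. ABCG1 was closest to PER3, a clock gene (Pearson r 0.996, and 0.959 for deviations from the group means), PPM1J, a phosphatase (0.994 and 0.957), and CD9, a tetraspanin (0.993 and 0.906). PLTP was closest to ABHD12, a lysophospholipase (0.998 and 0.936), CTSH, a lysosomal cathepsin (0.996 and 0.922), and PADI2, a protein deiminase (0.995 and 0.822). ABCA1 was closest to B3GLCT, a glycosyltransferase (0.998 and 0.977), SPP1, osteopontin (0.995 and 0.926), and GRN, progranulin (0.995 and 0.941). An r above 0.95 was shared by 255, 499 and 375 genes with ABCG1, PLTP and ABCA1.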

How the data were processed

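Poly-A RNA of 8 pools was sequenced by the authors on the DNBseq platform. The authors filtered the reads, mapped them with HISAT2 2.0.4 to Sus scrofa 11.1, assembled transcripts with StringTie and estimated expression with Bowtie2 2.2.5 and RSEM 1.2.12, and the values were deposited by the authors as FPKM with no stated scaling between libraries, rounded to 0.01. Another 4 deposited tables hold the authors' own Poisson comparisons of 1 initial with 1 steatosis pool (log2 fold changes, p and FDR values) and were not used. The strand setting is not given in the sources used here. The table holds no read counts, so precision is the SD between pools of 2 pigs, which are replicates of pools and not of pigs.

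FPKM were used as deposited and compared with limma 3.58.1 (R 4.3.3, trended variance) as described with the results, with limits of log2 fold change 1 and adjusted p 0.01. Exact two-sided permutation tests compared 5 within-pool gene ratios, with Benjamini-Hochberg adjustment over them. Python 3.11.15, numpy 2.4.6, pandas 2.3.3, scipy 1.17.1 and matplotlib 3.10.9 were used. The fit was tested on simulated data. The 10 genes and the lists were chosen with earlier results of these data known. Named are the 10 genes, at most 4 called genes of each list with the largest changes, and the 3 genes most similar to each of the 3 transcripts with the largest changes. Other genes (list members that were not called, neighbours and single markers) were named after their values were seen. Coordinates are from RefSeq, assembly Sscrofa11.1. The fit and the permutation tests were unpaired, as the sources used here do not state that pools of the same number held the same pigs. Deviations from the group means correlated at 0.163, 0.35, 0.317 and 0.247 between pools of the same number, all above 0.1, and the fit with the pool as a block was therefore given where it changed a call. Alternatives were 2 other pseudocounts, no filter and a stricter one, 3 scalings, the pool as a block, each library left out, limma's treat test and the looser limit.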

Additional observations from a re-analysis of the deposited data

Results flagged for a closer look

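Among 30 groups of 4 pools, 2 held a pool far from the other 3 by Dixon's test, and chance gives about 1 in 20. ABCG5 in steatosis had 9.59 FPKM in pool 3 when the other 3 pools had 11.74 to 11.86 FPKM, the gap being 0.947 of the whole range. The ratio of ABCG1 to ABCA1 in the initial state was 0.272 in pool 1 and 0.136 to 0.156 in the others (0.853 of the range), and pool 1 is the library with transcripts of skeletal muscle and stomach mucosa.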

How the results depend on the processing

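The count of the 10 transcripts called higher was 5 and became 3 under scaling to the upper quartile, 3 under scaling by the median ratio and 1, PLTP, when limma's treat tested against a log2 fold change of 1. It was 4 with the replicate block (SOAT2 lost, and no other of the 10 changed its call) and 4 to 5 when a library was left out. Without initial pool 2 the 5 held LPCAT3 (log2 fold change 1.05, adjusted p = 0.000801) in place of SOAT2 (adjusted p = 0.0227). At an adjusted p under 0.05 the lower count was 1 in place of 0. Over all genes, 792 were called higher and 44 lower, against 395 higher with a pseudocount of 1, 449 and 67 with the upper quartile, 408 and 84 with the median ratio, 68 and 1 with treat, 3519 and 300 at an adjusted p under 0.05, and 573 to 788 and 26 to 51 with a library left out. Lower-count values of 26, 28 and 29 came without steatosis pools 4 and 2 and initial pool 2. The sign turned for ABCG8 (-0.091 upper quartile, -0.14 median ratio, and -0.048 without initial pool 4 to 0.256 without initial pool 2), SOAT1 (-0.012 median ratio) and SCARB1 (-0.0003 and -0.052 in the same order of scalings), none of which was called, and for ABCG1 against ABCA1 (-0.020 with a pseudocount of 1, and 0.51 to 0.82 with a library left out). Under the replicate block the changes in the paired ratios were by construction as before (1.04 for ABCG5 over ABCG8), and sign flips of 4 pairs cannot give an exact p below 0.125. Apart from the constructions themselves, the cause was not tested. The depth behind low values such as ABCG1 in the initial state was not analysed.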

Other observations

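Within steatosis, pools 2 and 3 were both above pools 1 and 4 in 5 of the 10 transcripts (ABCA1, ABCG1, SOAT1, PLTP and LPCAT3) and both below in 1 (SOAT2), against 19.5% and 23.5% of all genes tested. In the initial state the same order was found in 6 of the 10 (ABCA1, ABCG8, SCARB1, SOAT1, LCAT and PLTP) and the reverse in 0, against 33.1% and 4.98% of all genes tested. These orders are those of FPKM as deposited. The median ratio scaling factors of initial pools 1 to 4 were 0.907, 0.991, 0.945 and 0.807, highest in pools 2 and 3. The order after scaling was not tested.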
